A study of Mus musculus with 16 samples.

Results

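The transcripts described here are those of 10 genes for structural proteins of the basement membrane, found by symbol among the 23100 genes of a count table. They encode 3 type IV collagen chains (Col4a1, Col4a2 and Col4a5, NCBI genes 12826, 12827 and 12830), collagens XV and XVIII of the basement membrane zone (Col15a1, 12819, and Col18a1, 12822) and both nidogens (Nid1, 18073, and Nid2, 18074). The others are a laminin alpha and a laminin gamma chain (Lama4, 16775, and Lamc1, 226519) and perlecan (Hspg2, 15530). All 10 were in the table and all 10 passed the filter on low counts. RNA came from mouse embryonic fibroblasts, which are connective tissue cells grown out of E13.5 embryos, of the C57BL/6 strain, kept in DMEM with fetal bovine serum. There were 4 cell lines, 2 wildtype (Zac+/+) and 2 mutant (Zac+/-) for Zac1, now called Plagl1, a zinc finger transcription factor gene that is imprinted. Each line was harvested at day 2 in vitro, which the labels call proliferative, and at days 8, 10 and 12, called quiescent, so that each of the 8 groups of genotype and day held 2 lines. In the comparisons of states, and of genotypes within a state, each line was counted as 1 replicate per group. Their p-values rest on the spread between these few lines, pooled over the groups and moderated by the spread of many other genes. The fit for single days and the comparison between replicate numbers counted libraries of the same line as independent. So did the comparisons of states, whose main fit did not pair the day 2 and quiescent libraries of a line. With the cell line as a block, 5 of the 10 genes were called between states in wildtype lines and 4 in mutant lines, as without it. No label says how many embryos a line came from or which exons the mutation removes.

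A basement membrane is a thin sheet of matrix that underlies epithelia and endothelia and wraps muscle, fat and nerve cells. Laminin trimers, each of an alpha, a beta and a gamma chain, form one network on the cell surface, and type IV collagen trimers form a second, covalently linked one. Nidogens and the heparan sulfate proteoglycan perlecan bind both networks together. Fibroblasts contribute type IV collagen, nidogens and some laminin chains to the basement membranes of neighbouring cells, as well as making the fibrillar collagens of the interstitial matrix.

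Libraries held 28079241 to 61039793 counted reads. Plagl1 was checked first, in CPM, the reads of a gene per 1000000 reads of the library after TMM scaling: wildtype lines had 45.4 and 37.7 at day 2 and mutant lines 9.14 and 7.59, and the quiescent libraries ran from 128 to 231 in wildtype and from 40.5 to 60.3 in mutant lines. The groups did not overlap at either state, and the transcript was not lost in the mutant lines. Of the 8 fibroblast markers the sum was 11996 to 13371 CPM at day 2 and 29616 to 41914 CPM at quiescence, with no member under 1 CPM throughout. By the test described below, where the shares of all genes are given, 6 of the 8 rose and 1 fell in each genotype. Thy1 stood at 0.483 to 0.778 of its day 2 level over the lines and Vim at 0.549 to 0.753. Among markers of cells that make or rest on basement membranes, the 9 endothelial markers summed to 19.3 to 24.0 CPM at day 2 and 5.05 to 9.49 at quiescence, with Tie1 listed at 0 in every library and Pecam1, Cdh5, Esam and Cldn5 each under 1 CPM. The 7 pericyte markers summed to 408 to 480 CPM at day 2 and 270 to 328 CPM at quiescence, with Higd1b at 0. That sum was mostly Cspg4 and Mcam, which fell, while Notch3, Abcc9 and, in wildtype lines, Kcnj8 rose. The 7 epithelial markers summed to 10.96 to 15.98 and then 1.69 to 4.65 CPM, and the 4 smooth muscle markers to 9772 to 12022 and then 5718 to 8356 CPM. Both sums hide members that rose. Of 5 epithelial markers tested, 1 (Cdh1, from under 1 CPM) rose, while 3 fell in wildtype and 4 in mutant lines. Of the 4 smooth muscle markers, 1 (Myh11, by 3.46-fold to 4.39-fold over the lines) rose and 2 fell in each genotype. The 5 macrophage markers differed by line, from 7.25 to 82.4 CPM at day 2 and from 9.16 to 343 CPM at quiescence. The part of other cell types in the results below was not tested, and in bulk samples fewer cells of a type and less RNA per cell cannot be told apart.

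As a share of all reads, the 10 genes made up 0.433% to 0.550% of counts at day 2 and 0.560% to 0.794% at quiescence. The wildtype replicate 1 line covered the widest span, from 0.433% at day 2 to 0.761% at day 10. Between quiescence and proliferation 5 of the 10 rose in wildtype lines and 4 of the 10 in mutant lines, and none fell in either (edgeR's quasi-likelihood test, Benjamini-Hochberg adjusted over 15740 genes, called under 0.05). Of all genes tested, 47.6% were called in wildtype lines (23.9% of all genes as higher and 23.7% as lower at quiescence) and 42.1% in mutant lines (21.1% as higher and 21% as lower). The share of the 10 called in wildtype lines was thus near that of all genes, with all 5 in the higher direction. The median log2 change of the 10 was 0.54 in wildtype and 0.29 in mutant lines, beside 0.05 over all genes in each. The changes ran from an 11.2-fold rise of Lama4 to a log2 change of -0.04 for Nid1 in wildtype lines.

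**Figure D1:**
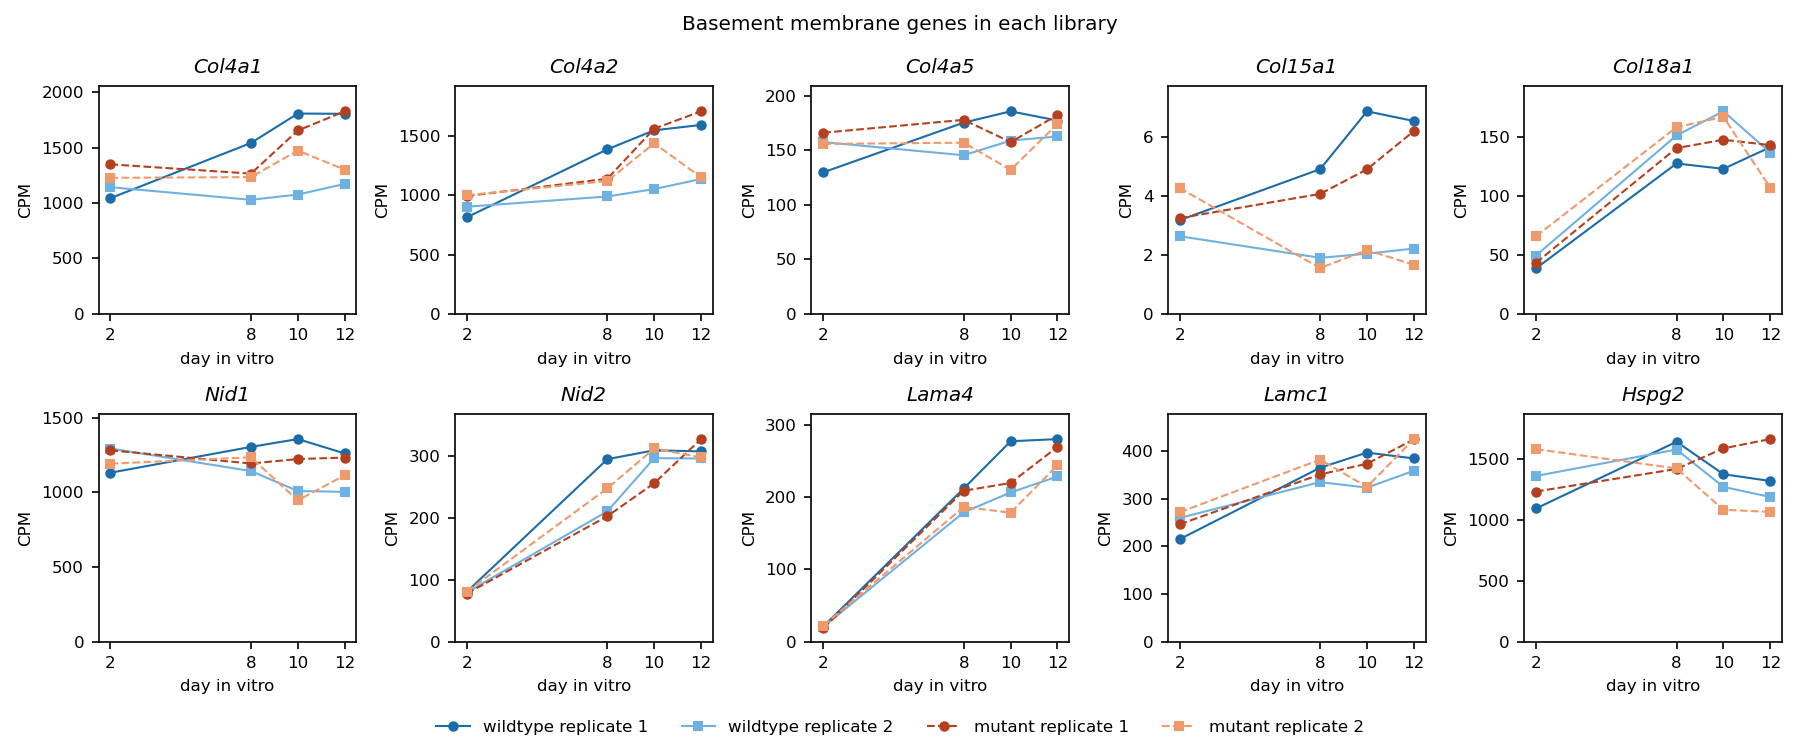
CPM (linear axes from 0) of each of the 10 basement membrane genes against day in vitro, with 1 line per cell line and 1 point per library. Lama4, Nid2, Col18a1 and Lamc1 stood higher in all 12 quiescent libraries than in all 4 day 2 libraries, while Nid1 and Hspg2 covered much the same range throughout. The share of all genes that separate in this way was not counted. Between states 47.6% of all genes were called in wildtype lines and 42.1% in mutant lines.

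The laminin chains come first because the laminin network is the one that cells assemble on their own surface. Lama4 encodes the laminin alpha 4 chain, found in the basement membranes of vessels, muscle and fat. At day 2 its level was 20.8 and 20.2 CPM in the wildtype lines and 18.1 and 22.0 CPM in the mutant lines. At quiescence the 12 libraries ran from 178 to 280 CPM with a median of 216, and each lay far above each day 2 library, with no overlap. How many of all genes separate in this way was not counted, here or for the genes below. Lama4 rose by a log2 of 3.49 (SE 0.16, adjusted p = 7.86e-07) in wildtype and 3.39 (SE 0.16, adjusted p = 1.58e-06) in mutant lines. Line by line the rise was 12.4-fold and 10.1-fold in the wildtype lines and 12.5-fold and 8.93-fold in the mutant lines, so the lines of one genotype differed from each other more than the genotypes did. Of the 6 pericyte markers tested, 3 rose and 2 fell in wildtype lines and 2 rose and 2 fell in mutant lines, with a median log2 change of 1.36 and 0.43. Notch3, a receptor of vessel mural cells, rose 6.81-fold in wildtype and 4.30-fold in mutant lines, from means of 7.16 and 9.77 CPM to 49.4 and 42.3 CPM. Of the 6 endothelial markers tested, 1 (Tek) rose and 2 fell in each genotype, with a median of -0.89 in wildtype and -1.65 in mutant lines. The part of these markers in the rise of Lama4 was not tested. The 4 skeletal muscle markers summed to 9.96 to 23.2 CPM at day 2 and 9.65 to 28.98 CPM at quiescence, and the 5 adipocyte markers to 8.45 to 11.4 and then 4.67 to 11.8 CPM.

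Lamc1 encodes the gamma 1 chain, which is part of most laminin trimers. Day 2 levels were 215 and 259.9 CPM in the wildtype lines and 247 and 272 CPM in the mutant lines. Quiescent libraries held 324 to 426 CPM, median 369.8, and here too none overlapped with day 2. The log2 rise was 0.60 (SE 0.12, adjusted p = 0.00307) in wildtype lines, a 1.52-fold change, and 0.52 (SE 0.12, adjusted p = 0.00757) in mutant lines. Single lines rose 1.78-fold and 1.30-fold in wildtype and 1.53-fold and 1.36-fold in mutant lines. Without wildtype replicate 1 the wildtype change was 0.37, and without mutant replicate 1 the mutant change was 0.42. Neither was called, but with 1 line left in the group a lost call cannot show which line it rested on.

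The other chains show which trimers the 2 laminin genes could enter. Of the 12 further laminin and type IV collagen chain genes, 4 rose in wildtype lines and 5 rose in mutant lines, beside 23.9% and 21.1% of all genes called as higher. Lama5 (log2 1.65, SE 0.11, in wildtype and 1.55, SE 0.11, in mutant lines) and Lamb2 (1.32, SE 0.15, and 1.20, SE 0.15) were among those that rose. Lama3 rose from 0.0893 to 0.695 CPM at day 2 to 2.58 to 11.7 CPM, a low level throughout. Lamb1, for the alternative beta chain to that of Lamb2, had a log2 change of -0.19 (SE 0.16, adjusted p = 0.368) in wildtype lines.

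Levels of different chains were compared as CPM per kilobase of exon, taking all annotated exons of a gene together. That length can exceed the length of a single transcript, and the annotation used for counting is not known. Shares and ranks between genes, here and below, depend on these lengths. The alpha chain transcripts summed to 9.69 to 11.4 CPM per kilobase at day 2 and 35.2 to 48.9 at quiescence. Lama4 took 13.2% to 17.8% of the alpha chain total at day 2 and 41.6% to 56.3% at quiescence, without overlap. Lama2, the alpha chain of muscle and nerve laminin, went from 21.4% to 34.1% of the total to 4.39% to 8.62%, while its own CPM did not pass the test (log2 -0.27, SE 0.26, adjusted p = 0.427, in wildtype lines). Lama5 held 49.7% to 60.1% and then 35.0% to 53.0%, ranges that overlap. Among beta chains, the Lamb1 to Lamb2 ratio per kilobase was 2.00 to 2.85 at day 2 and 0.655 to 1.10 at quiescence. These shares are descriptions of transcripts, and they do not give the amounts of assembled trimers.

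**Figure D2:**
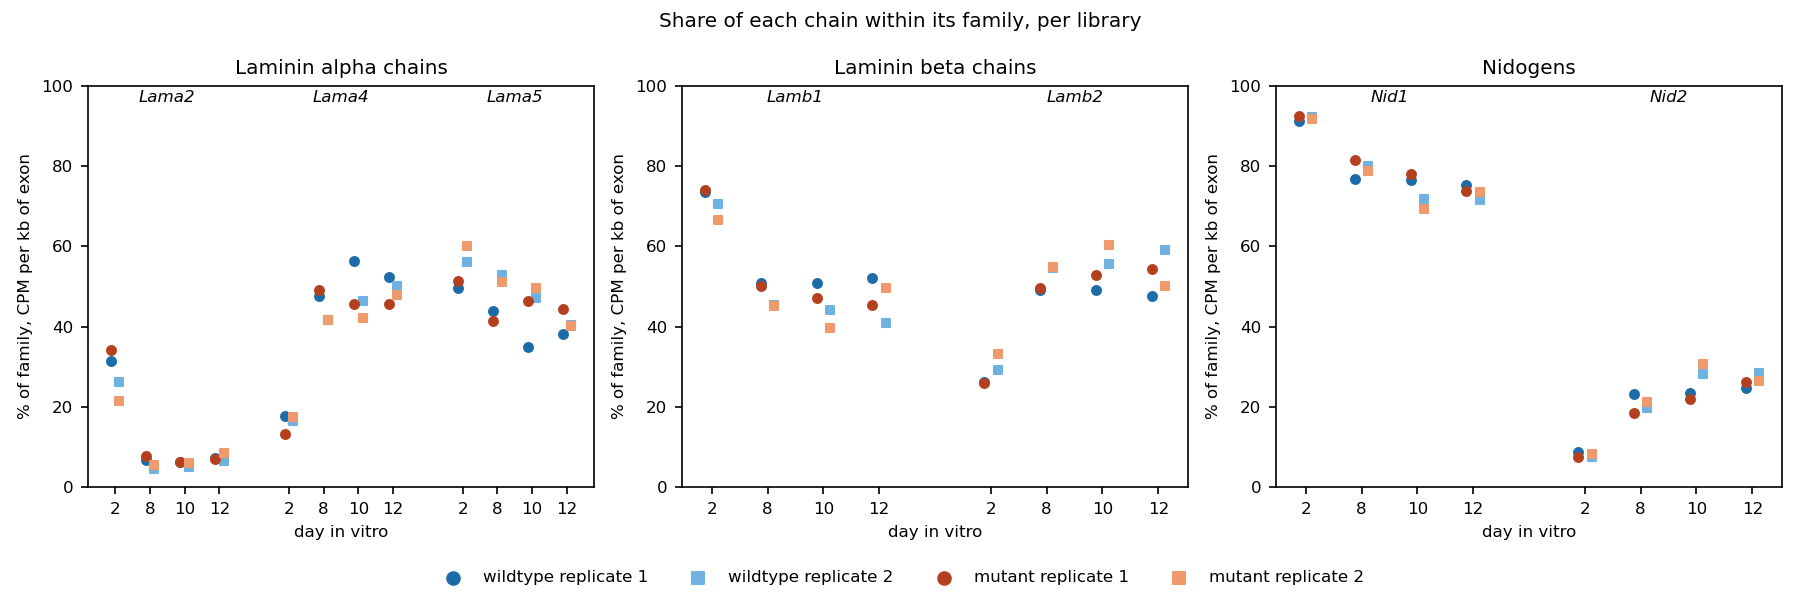
Share of each chain within the laminin alpha, laminin beta and nidogen families, as percent of the family's CPM per kilobase of exon, against day in vitro, 1 point per library. Lama4 goes from 13.2% to 17.8% of alpha chain transcripts at day 2 to 41.6% to 56.3% at quiescence, and Nid2 from 7.51% to 8.71% of nidogen transcripts to 18.6% to 30.7%.

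The nidogens link laminin to type IV collagen, and of the 2 genes Nid2 rose and Nid1 was not called. Nid2 stood at 80.4 and 79.4 CPM at day 2 in the wildtype lines and at 77.5 and 80.8 CPM in the mutant lines, the narrowest day 2 range of the 10 genes relative to its level. The quiescent libraries held 203 to 327 CPM with a median of 296, all above day 2. Nid2 rose by a log2 of 1.84 (SE 0.11, adjusted p = 2.42e-06, 3.58-fold) in wildtype lines and 1.75 (SE 0.11, adjusted p = 4.62e-06, 3.37-fold) in mutant lines. The fold in single lines was 3.79 and 3.36 in wildtype and 3.23 and 3.50 in mutant lines.

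Nid1 started far higher. Its day 2 levels were 1131 and 1293 CPM in the wildtype lines and 1281 and 1192 CPM in the mutant lines, and the quiescent libraries ran from 946 to 1356 CPM. Of those 12 libraries 2 lay above and 4 below every day 2 library. The log2 change was -0.04 (SE 0.13, 95% interval -0.34 to 0.25, adjusted p = 0.812) in wildtype lines and -0.10 (SE 0.13, interval -0.40 to 0.20, adjusted p = 0.563) in mutant lines. Per kilobase of exon, the Nid1 to Nid2 ratio was 10.5 to 12.3 at day 2 and 2.26 to 4.39 at quiescence, with no overlap between the states. Nid1 was still the more abundant nidogen in every library.

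Type IV collagen forms the second network. Col4a1 and Col4a2 encode the chains of its most widespread trimer, built from alpha 1 and alpha 2 chains. At day 2 Col4a2 was at 814 and 903 CPM in the wildtype lines and at 993 and 999.9 CPM in the mutant lines. In the wildtype replicate 1 line it stood at 1387, 1548 and 1593 CPM at days 8, 10 and 12, and in the wildtype replicate 2 line at 989.7, 1052 and 1137 CPM. The mutant lines had 1139, 1561.5 and 1708 CPM (replicate 1) and 1119.6, 1438 and 1151 CPM (replicate 2) on those days. In all, 11 of 12 quiescent libraries lay above every day 2 library, the exception being wildtype replicate 2 at day 8.

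Col4a2 rose in wildtype lines (log2 0.58, SE 0.16, adjusted p = 0.0142, 1.50-fold). In mutant lines the log2 change was 0.42 (SE 0.16, adjusted p = 0.0612), which did not pass the test. The difference between those changes was -0.16 (SE 0.23, unadjusted p = 0.492), so the genotypes were not shown to differ. The wildtype change was larger in replicate 1, where the fold was 1.87 against 1.17 in replicate 2. Without replicate 1 the change was 0.21 and was not called, with 1 line left in the group. The mutant change was called, at an adjusted p of 0.0289 to 0.0477, under 6 of 16 other settings.

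Col4a1 showed the same division by line. Its day 2 levels were 1043 and 1142 CPM in wildtype and 1348 and 1227 CPM in mutant lines. At days 8, 10 and 12 the wildtype replicate 1 line had 1541, 1806 and 1804 CPM and the wildtype replicate 2 line 1028, 1076 and 1172 CPM. The fold between states was thus 1.65 in the former and 0.950 in the latter, and 1.14 and 1.09 in the mutant lines. Col4a1 was not called in wildtype lines (log2 0.36, SE 0.19, adjusted p = 0.149) or in mutant lines (0.16, SE 0.19, adjusted p = 0.537). Without wildtype replicate 2 the wildtype change was 0.70, from the 1 line left.

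Although the lines differed in how far these 2 collagens moved, the transcripts kept close to each other within a library. The Pearson correlation of log2(CPM + 0.5) between Col4a1 and Col4a2 was 0.923 over the 16 libraries and 0.978 over the 12 quiescent ones. Both are given as a description, since libraries of the same line are not independent. Of 9929 genes searched with a mean of at least 5 CPM, Col4a2 was the gene most like Col4a1, followed by Spry1 (0.906), Adcy1 (0.862), Dner (0.856) and Garnl3 (0.845). The ratio of Col4a1 to Col4a2 per kilobase of exon was 1.09 to 1.20 at day 2 and 0.907 to 1.035 at quiescence. It was lower at quiescence in 4 of 4 lines, going from 1.14 to 1.01 and from 1.12 to 0.914 in the wildtype lines and from 1.20 to 0.956 and from 1.09 to 0.953 in the mutant lines. The smallest two-sided p that an exact paired sign-flip test allows for 4 lines is 0.125, and the ratio is given as a description.

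**Figure D3:**
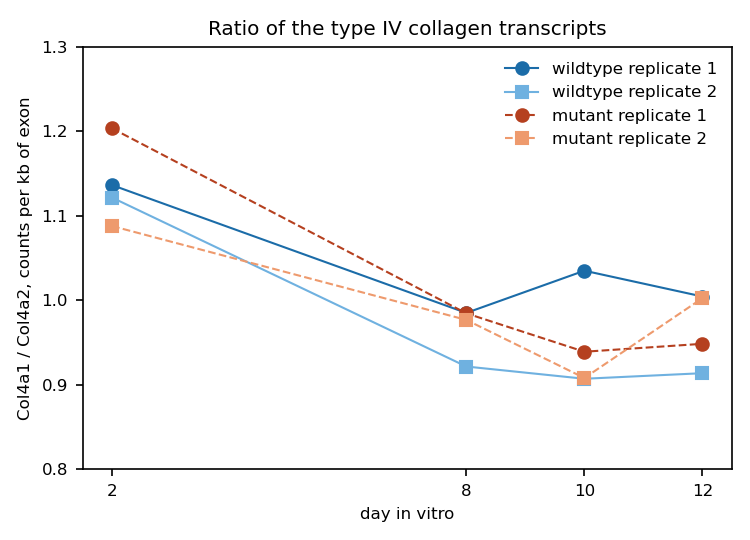
Ratio of Col4a1 to Col4a2 transcripts, each as CPM per kilobase of exon, against day in vitro, with 1 line per cell line; the axis runs from 0.8 to 1.3. The 4 day 2 libraries lie between 1.09 and 1.20 and the 12 quiescent libraries between 0.907 and 1.035.

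The 2 genes lie head to head and are read outward from a shared promoter, so sites before the start of each are shown. In RefSeq's annotation of GRCm38.p6 their listed starts overlap by 22 bases on chromosome 8. The 250 bases before each start were searched on both strands for the GC box GGGCGG, for the CCAAT box, for TATAAA and for the palindrome GGGGCCCC. Because the 250 bases before each of the 2 starts lie in the first exon of the other gene, only sites of 30 bases are printed, 5′ to 3′ on the strand of the gene named, with the match, or its reverse complement, in capitals and no match overlapping another.
Col4a1 CCAAT, chr8:11312954-11312983, minus strand: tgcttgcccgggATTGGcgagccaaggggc
Col4a2 CCAAT, chr8:11312761-11312790, plus strand: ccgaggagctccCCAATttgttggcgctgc
Col4a2 GC box, chr8:11312601-11312630, plus strand: gtggcgcgcccgGGGCGGcaggggaccagc
Col4a2 GC box, chr8:11312745-11312774, plus strand: gacctgagcgcgCCGCCCgaggagctcccc
Col4a2 GGGGCCCC, chr8:11312579-11312608, plus strand: gacgctgagccGGGGCCCCatggtggcgcg
Each gene thus had a CCAAT match, Col4a2 had 2 GC boxes and 1 GGGGCCCC, and neither had TATAAA. Among 32851 windows of 250 bases in the same RefSeq table, 33.8% held the CCAAT box, 32.7% the GC box, 12.4% the TATAAA motif and 0.889% the palindrome. GC made up 74.4% of the Col4a1 window and 73.6% of the Col4a2 window. A match is only a match of letters, and no binding was measured.

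Col4a5 encodes an alpha chain of the trimers found in kidney glomeruli and some other specialised basement membranes, and it is X-linked. It was read at 129.8 and 158 CPM at day 2 in wildtype lines and at 166 and 156 CPM in mutant lines, and at 132 to 186 CPM at quiescence. The states overlapped, and its change was not called in wildtype (log2 0.22, SE 0.13, adjusted p = 0.188) or mutant lines (0.0005, SE 0.13, adjusted p = 0.998). Per kilobase, Col4a5 amounted to 0.137 to 0.153 of Col4a1 at day 2 and to 0.0996 to 0.164 of it at quiescence.

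Of the 2 genes for heparan sulfate proteoglycans among the 10, Col18a1 rose and Hspg2 was not called. Col18a1 encodes collagen XVIII, a collagen with heparan sulfate chains whose end fragment is endostatin. At day 2 it was read at 38.5 and 49.4 CPM in the wildtype lines and at 43.2 and 65.6 CPM in the mutant lines, and at quiescence the libraries held 107 to 171 CPM, median 142. No quiescent library overlapped with a day 2 library. Col18a1 rose by a log2 of 1.69 (SE 0.20, adjusted p = 0.000151, 3.23-fold) in wildtype and 1.42 (SE 0.20, adjusted p = 0.000514, 2.67-fold) in mutant lines. Single lines rose 3.42-fold and 3.09-fold in wildtype and 3.33-fold and 2.25-fold in mutant lines, the smallest rise being in the line with the highest day 2 level.

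Hspg2 encodes perlecan, the large heparan sulfate proteoglycan of most basement membranes. Its day 2 levels of 1094 and 1361 CPM in wildtype and 1233 and 1581 CPM in mutant lines all lay within the quiescent range of 1066 to 1664 CPM. The log2 change was 0.18 (SE 0.17, interval -0.20 to 0.56, adjusted p = 0.405) in wildtype and -0.04 (SE 0.17, interval -0.42 to 0.34, adjusted p = 0.861) in mutant lines. Replicate 1 lines stood at 1.33 (wildtype) and 1.25 (mutant) times their day 2 level, and replicate 2 lines at 0.981 and 0.758 of it.

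The promoters of these 2 proteoglycan genes are shown because one transcript rose and the other was not called. Both are printed 5′ to 3′ on the gene's strand from RefSeq's GRCm38.p6 table, up to the first annotated exon base, with GC boxes and CCAAT boxes, read on either strand, in capitals.
Col18a1, chr10:77166549-77166780, minus strand: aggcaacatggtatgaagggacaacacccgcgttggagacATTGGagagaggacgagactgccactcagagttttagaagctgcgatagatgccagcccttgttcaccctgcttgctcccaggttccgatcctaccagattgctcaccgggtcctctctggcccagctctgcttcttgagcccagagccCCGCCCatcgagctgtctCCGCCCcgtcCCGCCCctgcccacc
Hspg2, chr4:137468553-137468768, plus strand: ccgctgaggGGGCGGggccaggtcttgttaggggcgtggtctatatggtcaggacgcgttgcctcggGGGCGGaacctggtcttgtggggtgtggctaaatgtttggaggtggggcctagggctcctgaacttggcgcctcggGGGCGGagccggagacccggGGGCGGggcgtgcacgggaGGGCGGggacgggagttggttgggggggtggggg
The Col18a1 window held 3 GC boxes and 1 CCAAT, and the Hspg2 window 5 GC boxes and no CCAAT, and neither held TATAAA. RefSeq lists a second start of Col18a1, whose window had no match to any of the 4 motifs. The counts are per gene and do not tell from which start a read came. Nid1 and Col4a5, which were not called either, each had 1 GC box and 1 CCAAT in their windows. Col15a1, also not called, had no match to the 4 motifs. Of all windows in the table, 32.7% held the GC box and 33.8% the CCAAT box. No binding was measured, and a link between these motifs and the changes was not tested.

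Col15a1, for collagen XV of muscle and vessel basement membranes, was the lowest of the 10, with 59 to 377 reads per library. At day 2 it was at 3.18 and 2.64 CPM in wildtype and 3.25 and 4.28 CPM in mutant lines. At quiescence the replicate 1 lines of both genotypes held 4.08 to 6.89 CPM and the replicate 2 lines 1.56 to 2.22 CPM, with no overlap. Across states the log2 change was 0.49 (SE 0.58, adjusted p = 0.525) in wildtype and -0.18 (SE 0.58, adjusted p = 0.821) in mutant lines. Line by line, it was 1.93-fold and 1.49-fold in the replicate 1 lines and 0.775 and 0.421 of day 2 in the replicate 2 lines.

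**Figure D4:**
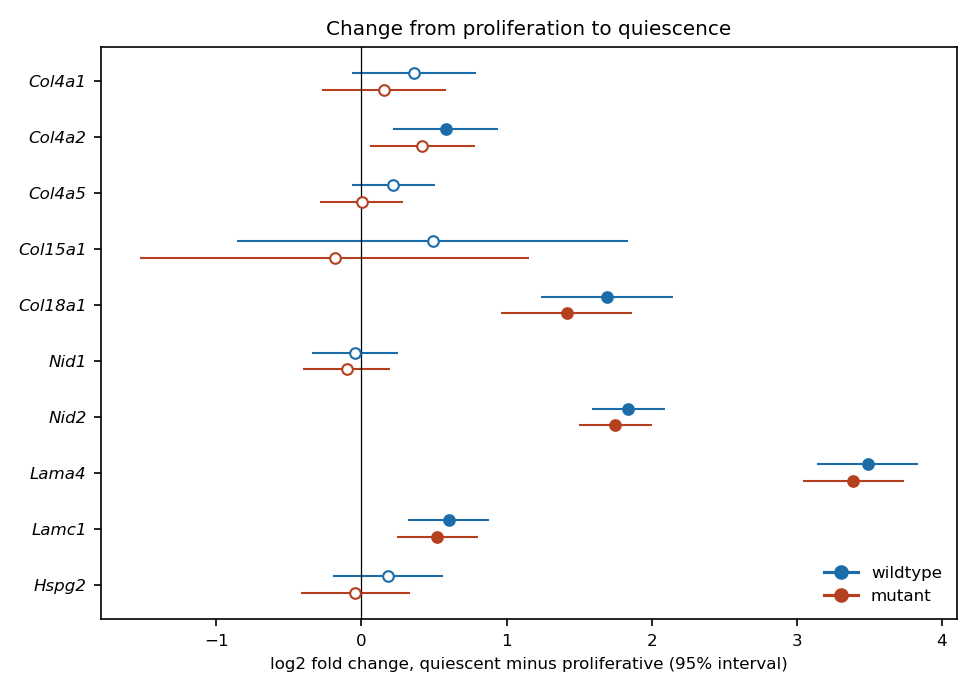
Log2 fold change of quiescent over proliferative libraries for each of the 10 genes in wildtype and mutant lines, from edgeR's fit on 8 summed libraries; bars are 95% intervals. Lama4, Nid2, Col18a1 and Lamc1 lie clear of 0 in both genotypes, and the interval of Col15a1 is by far the widest, from -0.86 to 1.84 in wildtype lines.

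Ranked by CPM per kilobase of exon, the order at day 2 was Nid1 (175 ± 11.3, SD over 4 lines), Col4a1 (158 ± 17.5), Col4a2 (139 ± 13.6), Hspg2 (91.2 ± 14.7), Lamc1 (29.7 ± 3.06), Col4a5 (22.5 ± 2.38), Nid2 (15.2 ± 0.300), Col18a1 (6.94 ± 1.70), Lama4 (1.67 ± 0.136) and Col15a1 (0.521 ± 0.109). Over the 4 lines the range of Col4a1 (138 to 179) overlapped with those of its neighbours Nid1 (160.3 to 185) and Col4a2 (121 to 150.4). At quiescence Col4a2 (196 ± 30.2), Col4a1 (188 ± 35.8) and Nid1 (166 ± 16.5) did not differ beyond their spread, and Nid2 (52.9 ± 4.36) had moved above Lamc1 (43.9 ± 2.39). Col18a1 (20.3 ± 1.32) and Lama4 (18.1 ± 2.17) came close to Col4a5 (24.2 ± 1.90), and Col15a1 stayed last (0.578 ± 0.329).

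Genes that work with these proteins were counted from lists of known roles. Of all genes, 23.9% were called as higher and 23.7% as lower in wildtype lines, and 21.1% and 21% in mutant lines. Of 17 other basement membrane components, 9 rose and 2 fell in wildtype lines and 8 rose and 3 fell in mutant lines, with a median log2 of 0.88 and 0.37. Agrn, for the proteoglycan agrin, rose from 34.9 to 46.5 CPM at day 2 to 75.8 to 115 CPM at quiescence (wildtype log2 1.30, SE 0.12). Sparc, for a protein that binds collagen IV, rose by 1.25 (SE 0.11) and 1.24 (SE 0.11). Hmcn1, for hemicentin, rose by 3.55 (SE 0.35) in wildtype and 2.59 (SE 0.33) in mutant lines, and Frem1, for a matrix protein of the epithelial basement membrane, by 4.27 (SE 0.51) and 3.88 (SE 0.52) from under 1 CPM. Tinagl1 and Col7a1, for the anchoring fibril collagen VII, fell in both genotypes, in wildtype lines by 1.10 (SE 0.17) and 2.48 (SE 0.50).

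Of 11 receptor genes 5 rose and 3 fell in wildtype lines, and 5 rose and 2 fell in mutant lines. Beside these, 47.6% and 42.1% of all genes were called in either direction. Itga1, for the integrin alpha chain that binds collagen IV, rose by 2.14 (SE 0.19) in wildtype and 2.37 (SE 0.19) in mutant lines. Itga6, for a laminin-binding integrin chain, fell by 1.66 (SE 0.14) and 1.47 (SE 0.14), while Itga7, for another, rose by 1.10 (SE 0.11) and 0.98 (SE 0.11). Receptors for laminin thus moved in both directions.

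Collagen is modified and folded in the endoplasmic reticulum before export. Among 10 genes of that machinery 5 rose and 0 fell in each genotype, with medians of 0.32 and 0.30. The share called was near that of all genes, 47.6% in wildtype and 42.1% in mutant lines in either direction. Those with the smallest p were the lysyl hydroxylases Plod1 and Plod2 and the prolyl hydroxylase subunits P4ha1 and P4ha2 (log2 0.54 to 0.93 in wildtype lines). Of 10 genes for matrix proteases and their inhibitors 5 rose and 2 fell in each genotype. Mmp2, for a gelatinase that cuts type IV collagen, rose by 2.31 (SE 0.15) in wildtype and 1.97 (SE 0.15) in mutant lines, and Timp3, for an inhibitor bound to matrix, by 1.85 (SE 0.14) and 1.93 (SE 0.14). Timp1, for a soluble inhibitor, fell by 1.35 (SE 0.21) and 0.84 (SE 0.20). Proteases and inhibitors both had members that rose.

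The series asked which genes differ between wildtype and mutant fibroblasts. None of the 10 was called in either state (edgeR, adjusted p = 1 for each gene), nor at an unadjusted p under 0.05, and DESeq2 and limma-voom called 0 of the 10 as well. Of all genes, 0.00635% were called in proliferation and 0.00635% at quiescence, in each case 1 of 15740, which was Plagl1 itself (log2 -2.31, SE 0.16, adjusted p = 0.000851, and -1.88, SE 0.15, adjusted p = 0.00298). In proliferation 8 of 10 lay above 0, with a median of 0.19, beside 7939 of 15740 genes above 0 and a median of 0.0015. At quiescence 4 lay above 0 and 6 below, with a median of -0.02. With 2 lines on each side, the smallest two-sided p an exact permutation test allows is 0.333, and each call rests instead on a spread estimated over many genes.

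The intervals set the size of what could be missed. Leaving out Col15a1, the 95% intervals of the other 9 genes reached from -0.35 to 0.77 in proliferation and from -0.43 to 0.48 at quiescence, on the log2 scale. For Col18a1 in proliferation the difference was 0.32 (SE 0.20, interval -0.13 to 0.77, unadjusted p = 0.142), the lowest p of the 10. Lama4 differed by -0.02 (SE 0.15) in proliferation and -0.12 (SE 0.14, interval -0.43 to 0.19) at quiescence. Col15a1 could have differed by far more, since its interval at quiescence was -1.60 to 1.03.

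**Figure D5:**
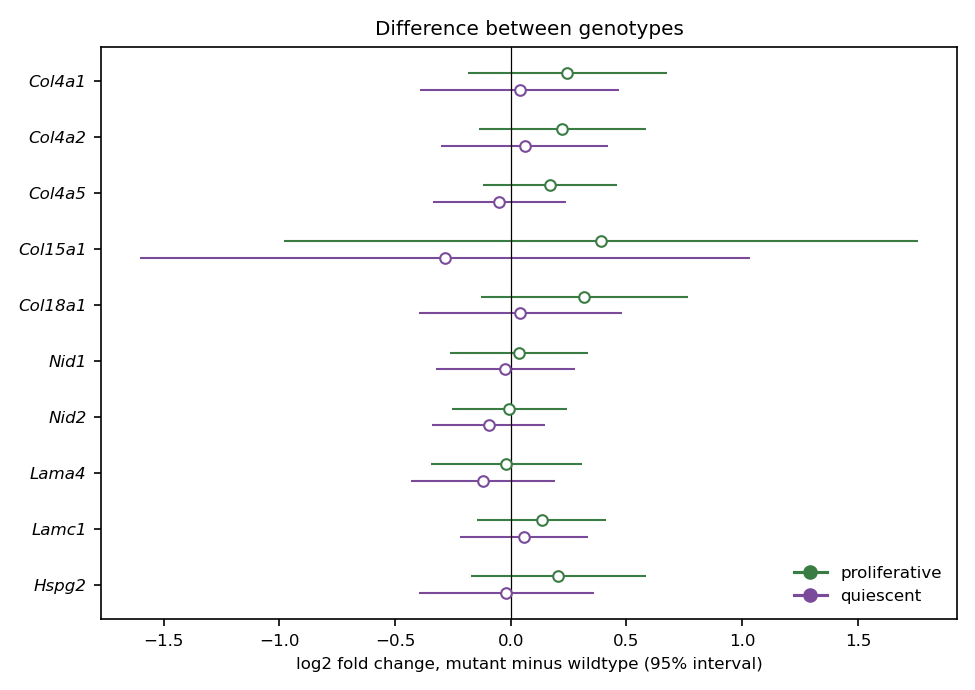
Log2 difference of mutant minus wildtype lines for each of the 10 genes in proliferation and at quiescence, from edgeR's fit on 8 summed libraries; bars are 95% intervals. Every interval includes 0, and those of the 9 genes other than Col15a1 stay between -0.43 and 0.77.

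The genotype difference at quiescence minus that in proliferation was below 0 for 10 of 10 genes, from -0.06 for Nid1 to -0.68 for Col15a1, beside 7555 of 15740 genes below 0 in the same contrast. None was called by edgeR, DESeq2 or limma-voom, and 0 of 10 had an unadjusted p under 0.05, the lowest edgeR p being 0.257. Of all genes 0% were called by edgeR, with 265 of 15740 at an unadjusted p under 0.05, 1 called by DESeq2 and 0 by limma-voom. Since the 4 groups of this contrast are also those of the comparisons above, the shared sign adds no independent observation. Within single quiescent days no member was called at day 8, 10 or 12 (0.00648% of 15439 genes on each, 0 of 10 members at an unadjusted p under 0.05, and 0 by DESeq2 and limma-voom). The lowest p was 0.0869, for Col4a5 at day 10 (log2 -0.25, SE 0.14).

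Among the quiescent days, day 12 was compared with day 8 over both genotypes. No member was called by edgeR (3.12% of genes were), 2 of 10 had an unadjusted p under 0.05, and DESeq2 called 2 and limma-voom 0. The 2 genes were Nid2 (log2 0.36, SE 0.11, adjusted p = 0.0942) and Lama4 (0.38, SE 0.11, adjusted p = 0.108). Because each line was harvested on both days, the fit was also made with the cell line as a block, which gave adjusted p = 0.0332 for Nid2 and 0.0267 for Lama4, and 943 called genes beside 482 without the block. Lama4 was higher at day 12 in 4 of 4 lines, 1.32-fold and 1.28-fold in wildtype and 1.29-fold and 1.31-fold in mutant lines. Nid2 was also higher in 4 of 4 lines, but by 1.04-fold to 1.62-fold. Hspg2 was at 0.749 to 0.804 of its day 8 level in 3 lines and at 1.17 in mutant replicate 1, and was not called (log2 -0.21, SE 0.15, adjusted p = 0.606).

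The labels give the letter I to both replicate 1 lines and L to both replicate 2 lines, with no word on what it marks. The replicate 2 lines were therefore compared with the replicate 1 lines across genotypes. No member was called (0.159% of genes were, 25 in all), with 1 of 10 at an unadjusted p under 0.05 and 0 by DESeq2 and limma-voom. That one was Col18a1, higher in replicate 2 lines (0.31, SE 0.10, unadjusted p = 0.0102, adjusted p = 0.364). Col15a1 had the largest difference (-0.75, SE 0.33, adjusted p = 0.655). Without mutant replicate 1 and without mutant replicate 2 it was -0.97 alike. Either fit compares only the wildtype lines, 1 against 1, so these are not separate observations. The genes closest to Col15a1 in pattern over the 16 libraries were Wbscr17 (Pearson r 0.946), Mdk (0.897), Ildr2 (0.886), Jag1 (0.878) and Plxnd1 (0.878), and those closest to Nid1 were Ano6 (0.938), Klf7 (0.88), Dgkh (0.875), Cacna1c (0.868) and Mkl2 (0.866). The macrophage markers named above also differed by line but did not follow the replicate number, as Lyz2 at quiescence was 26.8 and 95.1 CPM in the wildtype lines and 156 and 17.3 CPM in the mutant lines; their part in these results was not tested.

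Some pairs of the 10 genes were alike across the step between states and less so within quiescence. Nid2 and Lama4 had a Pearson correlation of 0.98 over 16 libraries and 0.551 over the 12 quiescent ones. Col18a1 and Lama4 went from 0.931 to -0.578, so within quiescence the libraries with more Lama4 tended to have less Col18a1. Col4a1 and Col15a1, in contrast, had 0.758 and 0.849. These values describe libraries that share lines, and no p is attached to them.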

How the data were processed

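The 16 libraries were made with a stranded kit from DNase-treated RNA, per the labels' protocols. The deposited table holds raw counts of reads per gene, made by the authors on mm9. Per the submitters' processing notes HTSeq 0.6.1p1, Bowtie2 2.2.9, TopHat2 2.1.1 and bcl2fastq 2.18 were used. HTSeq's annotation and strand option are not given in the sources used here; reads of overlapping genes, Col4a1 and Col4a2 among them, are uncertain for that reason. The labels' code for the mutant lines is not expanded.

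The days 8, 10 and 12 of a line are repeat harvests, so their counts were summed, giving 8 summed libraries. Genes were kept by filterByExpr (15740) and tested with edgeR 4.0.16 in R 4.3.3 (TMM, robust quasi-likelihood, 4 residual degrees of freedom), with p adjusted by Benjamini-Hochberg over all genes and called under 0.05. SE was derived as the size of the log2 change divided by the root of F. The fit for single days took all 16 libraries (8 groups, 15439 genes, 8 residual degrees of freedom) and treats harvests of a line as independent. The comparison of replicate 2 with replicate 1 lines was added to group terms. Counts of the 2 lines of a group gave a chi-square of 32.4 to 69.6 per degree of freedom, so the 2 libraries of a group were not duplicates. Libraries of different groups were not compared in this way. The fit was tested on simulated data for the wildtype comparison of states, with 100 genes changed at each of 2 sizes among 15479. It recovered 58% of those with a log2 change of 1 in size and 79.6% of those with 2, with 7 false calls. A gene that was not called may thus still have changed. Far fewer genes were changed there than were called in the data, so these shares need not hold for the data.

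State and day comparisons pair by design, since the same line was harvested each time. The main fits did not use this pairing, and the cell line block was run as an alternative. Deviations of same-numbered lines across genotypes correlated at 0.192 in proliferation and 0.109 at quiescence, and within a line between states at 0.234 and 0.242.

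Exon lengths came from GENCODE M21 on GRCm38 and promoters from RefSeq's GRCm38.p6 table (7 of 10 members matched, by symbol); the count table's build is mm9, so no coordinates were carried over. All 10 members are named, with up to 4 genes of the smallest p per list and state comparison and the 5 genes most like Col4a1, Nid1 and Col15a1. Lama2, Lamb1, Col7a1, Timp1, Lyz2 and the cell type markers singled out were chosen after their values were seen. The members and lists were chosen with earlier results of these data known. Alternatives were RLE and upper quartile scaling, DESeq2 1.42.0, limma-voom (limma 3.58.1), other filters, leaving out each line or each quiescent day, replicate blocks and fits on the libraries of a contrast alone. Some results on the further laminin chains are not reported here.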

Additional observations from a re-analysis of the deposited data

How the results depend on the processing

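No called value of the 10 genes changed its sign under any alternative. Signs of values that were not called did change, 20 of 150 times for genotype at quiescence and 6 of 160 times for the wildtype comparison of states. Leaving out 1 line in turn gave 4186 to 7755 called genes and 3 to 6 called members for states in wildtype lines, and 3 to 5 members in mutant lines. It gave 1 to 3 genes for genotype in proliferation, 1 to 4 at quiescence, 0 to 2 at day 8, 0 to 51 at day 10 and 0 to 1 at day 12. For day 12 against day 8 it gave 129 to 403 genes, and for replicate 2 against replicate 1 lines 285 to 345 genes and 0 to 1 members. A group left with 1 line was assumed to vary like the others.

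DESeq2 called 3 genes for genotype in proliferation, 1 for the difference between states, 15 at day 10, 894 genes and 2 members for day 12 against day 8, and 299 genes between replicate 2 and replicate 1 lines. For that last comparison limma-voom called 70, no filter on low counts 58, and sums without day 8, day 10 or day 12 gave 13, 16 and 40. A fit on only the libraries of the contrast called 0 genes for genotype at quiescence. With the replicate number as a block, 2 genes were called for genotype at day 10, and 767 genes and 1 member (Lama4, adjusted p = 0.0346) for day 12 against day 8. With the cell line as a replicate block these were 943 genes and 2 members. The replicate blocks changed no other call of a member. The cause of these changes was not tested. Upper quartile scaling moved the median of all genes in the wildtype comparison of states from 0.05 to 0.12. Depth limits Col15a1 most, at 59 to 377 reads per library.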
